A study of Mus musculus with 6 samples.

Results

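The genes described here are the enzymes of hepatic bile acid synthesis and their repressor Nr0b2, chosen by name: Cyp7a1, Hsd3b7, Cyp8b1, Akr1d1, Cyp27a1, Cyp7b1, Slc27a5, Baat and Nr0b2. All 9 were present among the 40824 genes of the deposited count table, and all 9 passed the filter on low counts. The table holds 1567 hepatocyte nuclei of wild-type (WT) female C57BL/6J mice, sequenced with Smart-seq3xpress, which reads whole transcripts of single cells or nuclei in plate wells. The mice had been mated at about 8 weeks of age. The stages were the gestation days G0 and G14.5 and the lactating postpartum day P7L, and at each stage 1 library came from hepatocytes labelled as isolated from liver tissue and 1 from perfusion. The labels name no animal, so with 2 libraries a stage the p-values reflect no more than the variation among the 6 libraries, which may be technical. The titles call the assay snRNA-seq, whereas the protocol given with them describes picking whole hepatocytes after collagenase perfusion.

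Bile acids are made from cholesterol in hepatocytes. In the classical pathway Cyp7a1 carries out the first and rate-limiting hydroxylation, Hsd3b7 oxidises the sterol ring, Cyp8b1 adds the hydroxyl group that makes cholic acid, and Akr1d1 reduces the ring. In the alternative pathway Cyp27a1, a mitochondrial enzyme, hydroxylates the sterol side chain and Cyp7b1 then hydroxylates the resulting oxysterols. Slc27a5 activates bile acids with coenzyme A and Baat joins them to taurine or glycine. Nr0b2, also called SHP, is a nuclear receptor without a DNA-binding domain. It is induced by the bile acid receptor Nr1h4 (FXR) and is known to repress Cyp7a1 and Cyp8b1.

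In GENCODE annotation of GRCm38, the build of the deposited table, Cyp7a1 lies at chr4:6265612-6275633 (minus strand, 6 exons) and Nr0b2 on the same chromosome at chr4:133553376-133556536 (plus strand, 2 exons). Cyp8b1 is a gene of 1 exon at chr9:121914356-121916305 (minus strand). Cyp27a1 lies at chr1:74713574-74737892 (plus strand, 9 exons), Cyp7b1 at chr3:18071950-18243338 (minus, 6 exons) and Akr1d1 at chr6:37530173-37568815 (plus, 9 exons). Slc27a5 lies at chr7:12988346-12998192 (minus, 10 exons) and Baat at chr4:49489422-49506557 (minus, 4 exons). The promoters of Cyp8b1 and Nr0b2 are shown because, among the 9 members, these genes had the largest upward and downward differences from G0 below. Each sequence is the 250 bases before the RefSeq start on GRCm38.p6, 5′ to 3′ on the strand of the gene (Cyp8b1 at chr9:121916306-121916555, Nr0b2 at chr4:133553126-133553375). Capitals mark CAAAGTCCA (a form of the HNF4 site) and TATAAA in Cyp8b1, and CACGTG (an E-box) and TATAAA in Nr0b2.
Cyp8b1: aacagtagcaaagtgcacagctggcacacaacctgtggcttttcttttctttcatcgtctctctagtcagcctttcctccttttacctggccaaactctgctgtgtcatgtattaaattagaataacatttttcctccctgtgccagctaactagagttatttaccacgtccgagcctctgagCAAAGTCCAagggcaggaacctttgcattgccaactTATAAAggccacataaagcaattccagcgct
Nr0b2: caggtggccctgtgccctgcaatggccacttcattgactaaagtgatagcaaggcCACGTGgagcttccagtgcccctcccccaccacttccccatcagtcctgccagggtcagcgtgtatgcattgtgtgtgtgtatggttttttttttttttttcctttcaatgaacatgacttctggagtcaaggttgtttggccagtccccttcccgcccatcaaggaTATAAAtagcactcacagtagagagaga
RefSeq promoters were matched for 5 of the 9 genes, namely Cyp8b1, Nr0b2, Akr1d1, Cyp27a1 and Hsd3b7, and were searched on both strands with motifs chosen after the sequences were seen. CAAAGTCCA lay 67 to 59 bases before the start of Cyp8b1, in none of the other 4, and in 0.384% of the 32851 RefSeq promoters cut to the same length. TATAAA, in 12.4% of all promoters, lay 31 to 26 bases before the start of Cyp8b1 and 28 to 23 before that of Nr0b2. CACGTG, in 6.02%, lay 195 to 190 bases before the start of Nr0b2. AGGTCA, the half-site of many nuclear receptors (14% of all promoters), was found on the reverse strand of Akr1d1 in 2 places, and TTATGTAA, the D-box (0.819%), in none of the 5. No searched motif overlapped another within these promoters. A match describes letters in this window only.

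The 6 libraries held 184 to 308 nuclei and 226030591 to 379767336 reads, with median reads per nucleus of 731494 to 1191576. Hepatocyte markers took 1.44% to 1.78% of reads. The summed markers of other cell types were low in every library: 12.8 to 37.6 CPM (read counts per 1000000 reads) for endothelial cells, 8.35 to 21.5 for stellate cells, 6.11 to 17.9 for Kupffer cells and macrophages, 1.47 to 7.84 for cholangiocytes, 2.78 to 8.34 for lymphocytes and 0.315 to 10.1 for erythroid cells. Lrat, a defining stellate marker, and Ms4a1, a B cell marker, were listed at 0 in all 6 libraries. So were Oat, Lhpp, Per3, Ch25h and Alas2. A 0 in every library may mark a row that took no reads, so these zeros do not show that a cell type was absent. Levels below are CPM scaled with TMM factors, and fold changes are log2 values of edgeR's quasi-likelihood fit over 15015 genes, with terms for stage and preparation. Calls were made where the p adjusted by Benjamini-Hochberg was under 0.05.

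Cyp7a1, Cyp8b1 and Cyp7b1 rose between G0 and G14.5. At P7L these 3 enzymes again stood above G0, and Slc27a5 was higher as well. Between G14.5 and P7L, Slc27a5 was the single gene of the 9 that changed. No member fell past the test, and the lower Nr0b2 levels of both later stages missed it. The counts were thus 3 of 9 members called at G14.5 against G0, where 11.9% of all tested genes were called (6.93% higher and 5.01% lower), and 4 of 9 at P7L against G0, where 2.92% were called (1.56% higher and 1.36% lower). At P7L against G14.5, 1 of 9 was called beside 9.26% of all genes (4.2% higher and 5.06% lower). The median log2 difference of the 9 members was 0.14, 0.42 and -0.04 in these 3 comparisons, beside -0.01, 0.01 and 0.00 over all tested genes. Each pair of these comparisons shares the libraries of 1 stage. The share of all genes whose libraries did not overlap between stages was not counted, so such separations of members below are descriptive. Cyp8b1 too had no overlap between G14.5 and P7L, at a log2 difference of 0.09. The members were chosen with earlier results of these data known, so counts set beside the shares of all genes are descriptive and do not test the set.

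**Figure D1:**
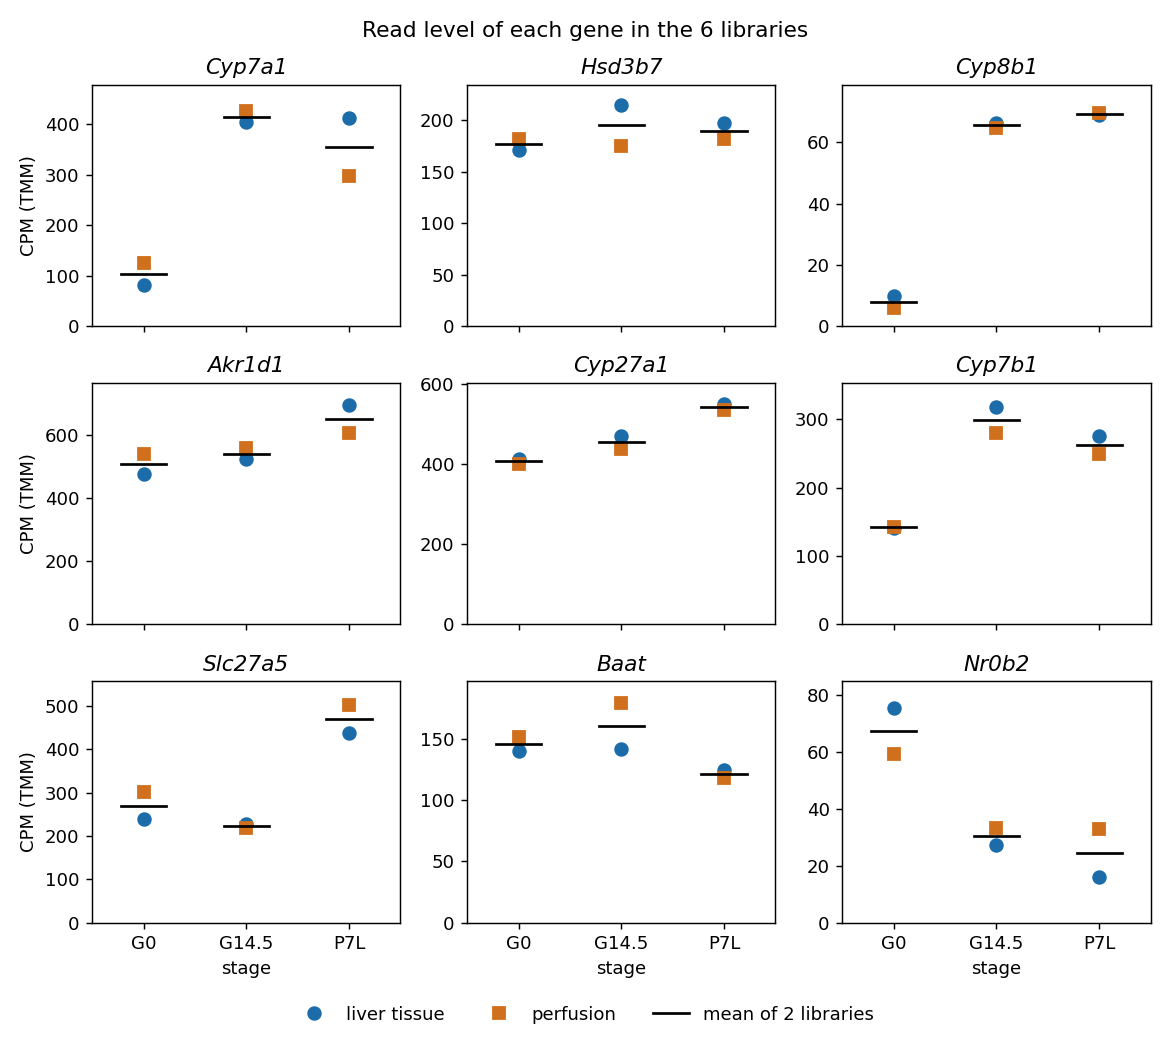
Level of each gene in CPM (vertical axes, each starting at 0) at the 3 stages; circles are liver tissue libraries, squares perfusion libraries and bars the mean of the 2. Cyp7a1, Cyp8b1 and Cyp7b1 lie higher at G14.5 and P7L than at G0, Slc27a5 is highest at P7L, and both G0 libraries of Nr0b2 lie above all later ones.

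Cyp7a1, the entry enzyme, measured 81.9 CPM in liver tissue and 126 in perfusion at G0. At G14.5 it measured 405 and 425 CPM, and at P7L 413 and 297. All 4 libraries of the later stages lay above both G0 libraries, and the P7L perfusion library was the lowest of the 4. The log2 fold change was 2.01 ± 0.25 (SE) at G14.5 (edgeR adjusted p = 0.00388) and 1.79 ± 0.25 at P7L (edgeR adjusted p = 0.0223). Without the P7L liver tissue library the P7L difference was 1.37 ± 0.25 and was not called (edgeR adjusted p = 0.0583). The P7L call was also lost with edgeR's own filter on low counts (filterByExpr) alone, without the filter on nuclei with reads (1.79 ± 0.26, edgeR adjusted p = 0.0645). With no filter at all it was kept (1.82 ± 0.25, edgeR adjusted p = 0.0339). Between G14.5 and P7L the groups overlapped (-0.22 ± 0.24, edgeR adjusted p = 0.642).

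Cyp8b1, which sets the share of cholic acid, had the largest fold changes among the members. It measured 9.91 and 5.92 CPM at G0 (liver tissue first, as throughout), 66.2 and 64.8 at G14.5, then 69.1 and 69.7 at P7L. The later libraries lay close together, far above both at G0. The log2 fold change was 3.08 ± 0.27 at G14.5 (edgeR adjusted p = 0.00104) and 3.16 ± 0.27 at P7L (edgeR adjusted p = 0.00417). P7L and G14.5 differed by 0.09 ± 0.25 (edgeR adjusted p = 0.88).

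Hsd3b7 and Akr1d1, which act on the sterol ring after the first hydroxylation, were not called in any stage comparison. Hsd3b7 measured 171.5 and 182 CPM at G0, 215 and 175 at G14.5, then 197 and 181.5 at P7L, and its stages overlapped. The annotation places a second protein-coding gene, Gm49388, over Hsd3b7 (chr7:127800604-127803802) on the same strand. Gm49388 has no row in the count table, so the reads of the pair cannot be told apart here. Akr1d1 measured 477 and 540 CPM at G0, 525 and 559 at G14.5, then 697 and 606 at P7L. Both P7L libraries lay above the other 4, and the difference from G0 was 0.36 ± 0.13 (edgeR adjusted p = 0.182).

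In the alternative pathway, Cyp7b1 measured 141.5 and 143 CPM at G0, 318 and 279.9 at G14.5, then 276 and 249 at P7L. No later library reached down to the G0 level. The log2 fold change was 1.07 ± 0.13 at G14.5 (edgeR adjusted p = 0.00375) and 0.88 ± 0.13 at P7L (edgeR adjusted p = 0.0245). The P7L call was lost without the P7L liver tissue library (0.85 ± 0.23, edgeR adjusted p = 0.164), without the P7L perfusion library (0.92 ± 0.23, edgeR adjusted p = 0.204), and with filterByExpr alone (0.88 ± 0.12, edgeR adjusted p = 0.056). With no filter the P7L call of Cyp7b1 was kept (0.91 ± 0.13, edgeR adjusted p = 0.0356). Cyp27a1 measured 414 and 399.9 CPM at G0, 471 and 437.5 at G14.5, then 550.3 and 536 at P7L. Its 3 stages did not overlap, but the differences were small and not called, with 0.16 ± 0.11 at G14.5 (edgeR adjusted p = 0.391) and 0.42 ± 0.11 at P7L (edgeR adjusted p = 0.091).

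Of the conjugating enzymes, Slc27a5 was called and Baat was not. Slc27a5, the bile acyl-CoA synthetase, measured 239.8 and 301 CPM at G0, 227 and 218.5 at G14.5, then 437 and 502 at P7L. Both P7L libraries were above all others. The log2 fold change was 1.07 ± 0.14 at P7L against G14.5 (edgeR adjusted p = 0.00467) and 0.80 ± 0.14 at P7L against G0 (edgeR adjusted p = 0.0334). The call against G14.5 was narrowly lost without the P7L perfusion library (1.04 ± 0.23, edgeR adjusted p = 0.0529). The call against G0 was lost without the G0 liver tissue library (0.67 ± 0.14, edgeR adjusted p = 0.0515), without the P7L liver tissue library (0.83 ± 0.23, edgeR adjusted p = 0.176) and without the P7L perfusion library (0.77 ± 0.24, edgeR adjusted p = 0.286). It was also lost with filterByExpr alone (0.80 ± 0.13, edgeR adjusted p = 0.0743) and with no filter (0.83 ± 0.14, edgeR adjusted p = 0.0525). Baat, the amino acid transferase, measured 140 and 151.5 CPM at G0, 142 and 179.6 at G14.5, then 124.5 and 118 at P7L. Its P7L libraries were the lowest, by -0.40 ± 0.16 against G14.5 (edgeR adjusted p = 0.181).

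Nr0b2, the repressor, measured 75.5 and 59.3 CPM at G0, 27.4 and 33.3 at G14.5, then 16.2 and 32.9 at P7L. Both G0 libraries lay above the 4 later ones. The log2 difference was -1.19 ± 0.33 at G14.5 and -1.53 ± 0.34 at P7L, and neither passed the test (edgeR adjusted p = 0.0605 and 0.0619). Both passed when the G0 perfusion library was left out (-1.64 ± 0.30, edgeR adjusted p = 0.0167, and -2.03 ± 0.31, edgeR adjusted p = 0.0261). The G14.5 difference also passed without the P7L liver tissue library (-1.15 ± 0.28, edgeR adjusted p = 0.0356) and without the P7L perfusion library (-1.15 ± 0.29, edgeR adjusted p = 0.0428). Both were smaller when the G0 liver tissue library was left out (-0.63 ± 0.32 at G14.5, edgeR adjusted p = 0.237, and -1.03 ± 0.30 at P7L, edgeR adjusted p = 0.106). Without the P7L liver tissue library the P7L difference was -1.01 ± 0.38 (edgeR adjusted p = 0.319). DESeq2 called both (adjusted p = 0.00375 and 0.000225).

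**Figure D2:**
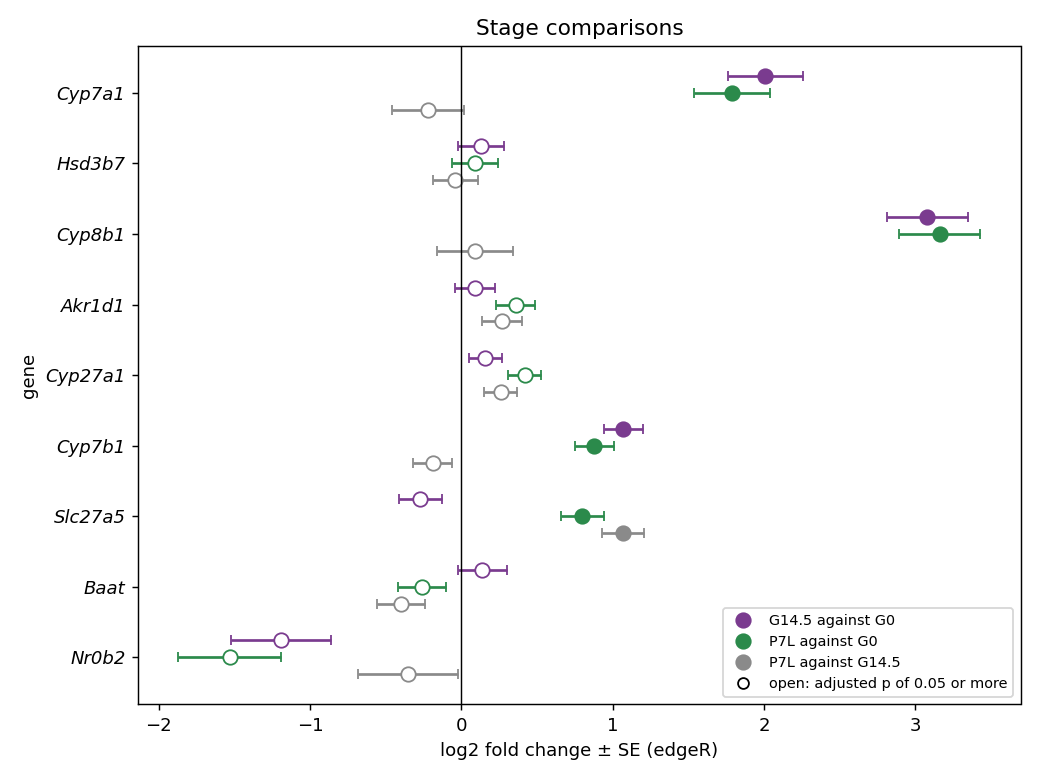
Log2 fold change with its standard error (horizontal axis) for each gene in the 3 stage comparisons, from the fit to all 6 libraries. Filled points have an adjusted p under 0.05; Cyp8b1 lies farthest to the right at 3.08 and 3.16, and the open points of Nr0b2 at -1.19 and -1.53 lie farthest to the left.

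Against G0, fewer members were called on the authors' length-scaled values, tested with limma on log2 library means plus a pseudocount. At G14.5 against G0, Cyp8b1 was the single member called with a pseudocount of 0.1 (2.5 ± 0.40, limma adjusted p = 0.049), and Cyp7b1 the single one with a pseudocount of 1 (0.88 ± 0.08, limma adjusted p = 0.0318). For P7L against G0, limma called 0 members and 0 genes in all with either pseudocount, with 3073 and 3145 genes at an unadjusted p under 0.05, where edgeR called 438 on the counts. Between G14.5 and P7L, Slc27a5 was called with a pseudocount of 1 (1.16 ± 0.12, limma adjusted p = 0.0397) and of 0.1 (1.19 ± 0.18, limma adjusted p = 0.0488).

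No member differed past the test between perfusion and liver tissue. Of the 9 members 0 were called, and 0 at an unadjusted p under 0.05. Over all genes edgeR called 0, which is 0%, with 707 at an unadjusted p under 0.05, and DESeq2 called 87. The largest difference among the members was that of Nr0b2, 0.32 ± 0.27 on the log2 scale (edgeR adjusted p = 0.971).

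Hepatocytes differ along the axis from the portal to the central vein of the liver lobule, and Cyp7a1 is a known pericentral gene. Each nucleus was given a zonation index, its reads of pericentral genes over its reads of pericentral and periportal genes, and each library was divided into 3 equal groups by that index. No member is in the index. Median indices were 0.00983 to 0.0226 in the periportal groups of the 6 libraries, 0.0343 to 0.191 in the middle ones and 0.215 to 0.671 in the pericentral ones. Index genes themselves differed between stages. The pericentral Cyp2e1 measured 1257 and 1464 CPM at G0 and 385 and 407 at G14.5, while the pericentral Slc1a2 went from 243 and 354 to 576 and 416. An index is therefore not a position that can be compared between stages, and groups of the same name may sit at different points of the axis. Between 38 of 252 nuclei (G0 liver tissue) and 189 of 298 (P7L perfusion) had an index within 0.02 of a boundary between groups. Genes kept out of the index as a check were ordered as their zone says: the pericentral Cyp1a2, Gulo, Ahr and Nrn1 were higher in the pericentral group and the periportal Hal, Sds, Gls2, Pck1, Sox9 and Tat lower. Rhbg, another pericentral gene, was 1.51 ± 0.58 higher and not called (edgeR adjusted p = 0.257), and Sp5 was too low to test.

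Cyp7a1, Cyp7b1, Cyp27a1 and Hsd3b7 were higher in the pericentral than in the periportal group, which makes 4 of the 9 members. Of all 14330 genes tested, 3.64% were called and 1.93% were called higher. Cyp7a1 had the steepest gradient, 3.02 ± 0.16 on the log2 scale (edgeR adjusted p = 1.11e-05), and rose at each step in 6 of 6 libraries. At G0 it went from 21.8 to 131 CPM in liver tissue and from 33.6 to 244 in perfusion. At G14.5 it went from 88.7 to 772 and from 112.5 to 806, and at P7L from 94.7 to 699 and from 38.7 to 547. The middle groups at G0 measured 98.3 and 88.95 CPM. Groups of different stages may cover different parts of the axis, so these levels do not compare positions between stages.

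Cyp7b1 was 1.93 ± 0.29 higher in the pericentral group (edgeR adjusted p = 0.00411), Cyp27a1 1.34 ± 0.16 (edgeR adjusted p = 0.00119) and Hsd3b7 1.10 ± 0.12 (edgeR adjusted p = 0.000679). All 3 were higher there in 6 of 6 libraries. All 4 gradients were called under each of the 11 alternatives, thinned nuclei included. In G0 liver tissue the median reads per nucleus were 893611 in the periportal and 648635 in the pericentral group. Akr1d1 (0.08 ± 0.11), Slc27a5 (-0.07 ± 0.09), Baat (-0.10 ± 0.16), Cyp8b1 (0.40 ± 0.68) and Nr0b2 (0.28 ± 0.32) were not called, with edgeR adjusted p from 0.791 to 0.868.

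The order of the groups by Cyp8b1 level was not the same at the 3 stages, but no test called a difference. At G14.5 the middle group was highest in both libraries, with 46.6, 106 and 43.5 CPM from periportal to pericentral in liver tissue and 51.6, 88.2 and 56.3 in perfusion. At P7L the pericentral group was highest in both, with 41.2, 76.2 and 89.9 CPM in liver tissue and 38.4, 73.8 and 92.1 in perfusion. At G0 the libraries went opposite ways, with 3.71, 4.82 and 22.1 CPM in liver tissue and 8.18, 10.7 and 0.504 in perfusion. These G0 values rest on few nuclei, as the top 10% held 96.4% and 96.2% of the summed CPM. The test of the periportal to pericentral difference by stage did not call Cyp8b1 (edgeR adjusted p = 0.979), and it does not use the middle group. When each index gene was scaled within its library, 80% and 69% of the G14.5 middle nuclei stayed in the middle group. The level of Cyp8b1 in the middle group was not examined under that index.

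The same test called 0 of the 9 members and 0% of all genes, with 893 genes at an unadjusted p under 0.05 and 0 by limma-voom. The smallest unadjusted p among the members were those of Cyp7b1 (0.00248) and Cyp27a1 (0.00278), both at an edgeR adjusted p of 0.578. The pericentral to periportal ratio of Cyp7b1 was 5.5 and 11.3 in the G0 libraries, 3.1 and 3.43 at G14.5, then 2.26 and 2.2 at P7L. That of Cyp27a1 was 2.81 and 3.06 in the G0 libraries, 1.64 and 1.74 at G14.5, then 3.05 and 3.59 at P7L. Both genes were picked for the smallest p of a test that called no gene, and the Cyp27a1 ratios at P7L overlapped those at G0.

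**Figure D3:**
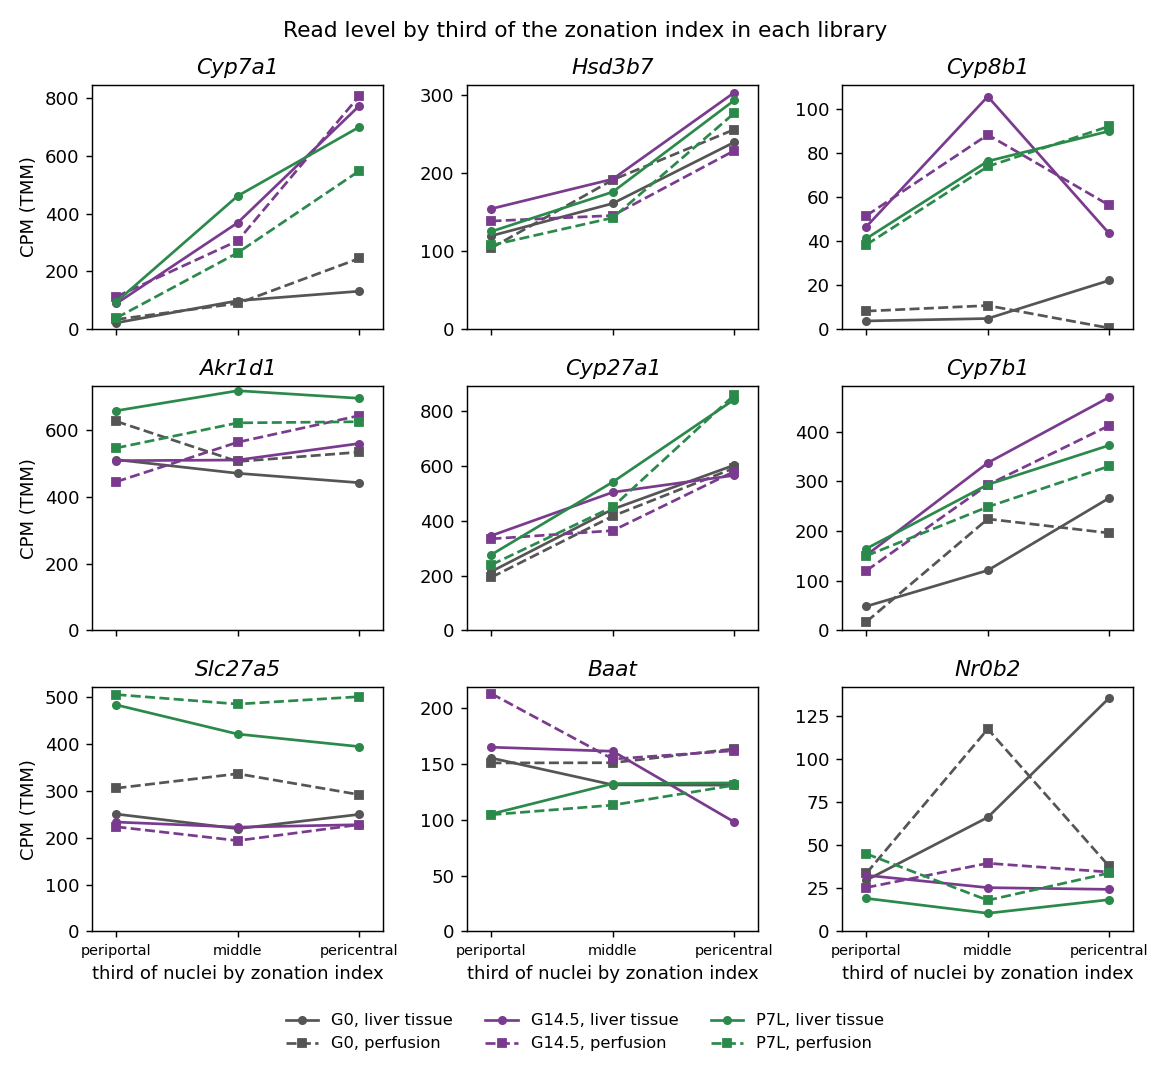
Level in CPM (vertical axes) in the periportal, middle and pericentral group of nuclei of each library; colours are stages, solid lines liver tissue and dashed lines perfusion. Cyp7a1, Hsd3b7 and Cyp27a1 rise at each step in all 6 libraries, Slc27a5 is nearly level, and Cyp8b1 peaks in the middle group at G14.5.

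Sums over nuclei do not tell more nuclei with the RNA from more RNA in each, so reads were also counted per nucleus. A share of nuclei with a read also rises with the RNA in each nucleus, so shares alone do not separate these cases. After thinning each nucleus to 250000 reads, Cyp8b1 had a read in 19.4% of nuclei (exact Clopper-Pearson 95% interval 14.6 to 25) and 15.5% (10.5 to 21.6) at G0. The shares were 72.8% (66.4 to 78.5) and 65.7% (60 to 71) at G14.5, and 80.6% (75.6 to 85) and 70.3% (64.7 to 75.4) at P7L. Without thinning the shares were 27.4% and 25%, 81.2% and 81.1%, and 84.1% and 81.9%. The intervals cover counting error over the nuclei of 1 library only, and PCR copies can make several reads of 1 molecule. At G0 the top 10% of nuclei held 96.4% and 96.2% of the summed CPM of Cyp8b1, against 45% to 54.5% at the later stages. A single G0 liver tissue nucleus of 93106 reads held 257 of that library's 2246 Cyp8b1 reads (11.4%).

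Cyp7a1 had a read in 63.7% and 65.7% of thinned nuclei at G0, 94.2% and 93.7% at G14.5, then 94.6% and 89.9% at P7L. Its median nucleus, without thinning, measured 10.1 and 12.2 CPM at G0, 213 and 198 at G14.5, then 256 and 69 at P7L. Nr0b2 had a read in 59.9% and 47% of nuclei at G0, 38.8% and 39% at G14.5, then 28.6% and 44.9% at P7L. The top 10% of nuclei held 63.2% to 80.8% of its summed CPM in all libraries. Without thinning, the shares of Cyp7a1 were 69% to 74.5% at G0 and 96.6% to 100% later, and those of Nr0b2 62% to 65.9% at G0 and 34.7% to 51.3% later. The other 6 members were found in 74% to 100% of thinned nuclei, and Akr1d1 in all of them.

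**Figure D4:**
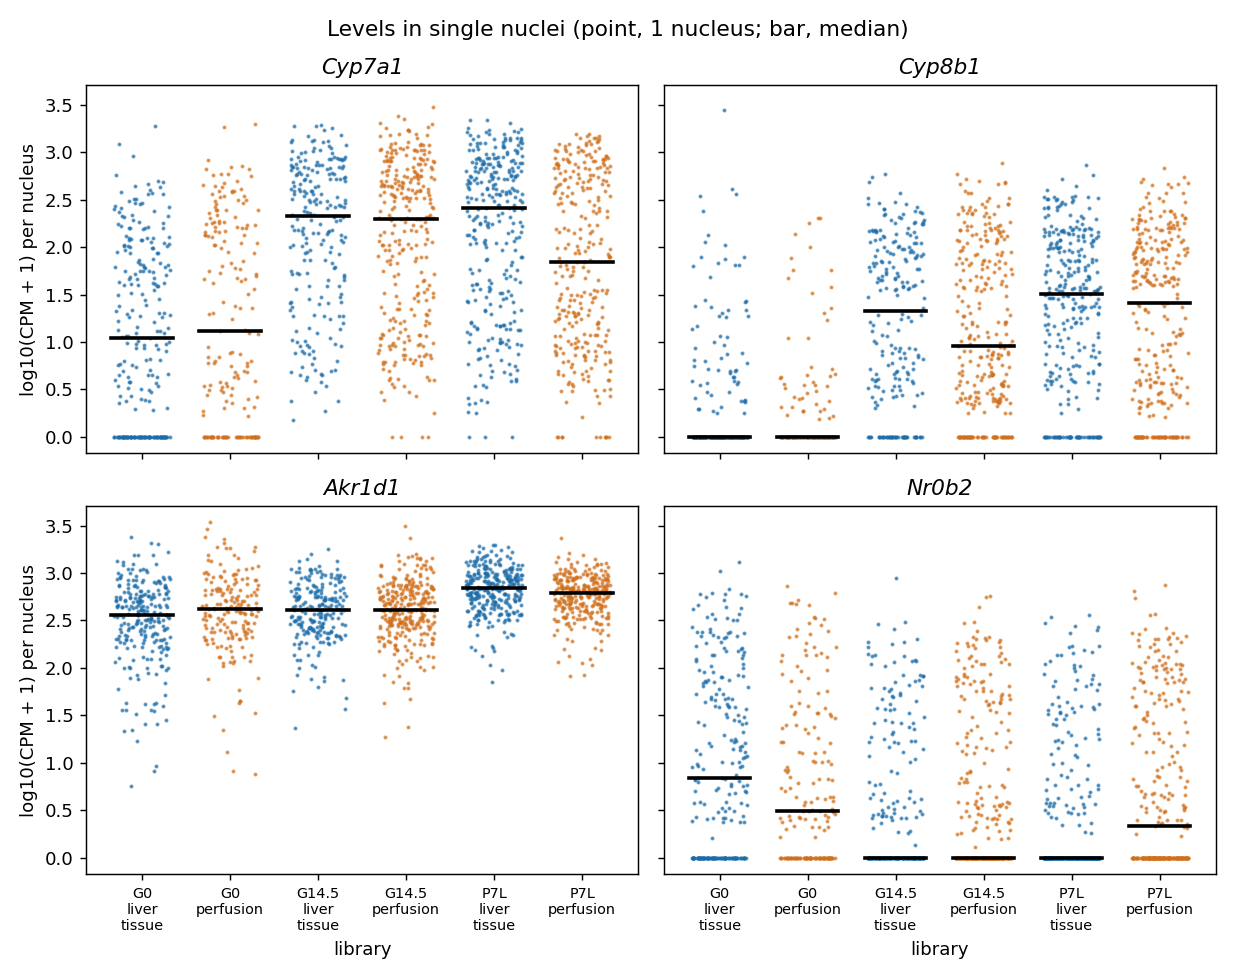
Level in each nucleus as log10(CPM + 1) (vertical axes) by library, with a bar at the median; points at 0 are nuclei without a read, and nuclei were not thinned. Most G0 nuclei have no Cyp8b1 read, while Akr1d1 has reads in every library's nuclei with a median of 361 to 694 CPM.

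Levels of the 4 members that were higher in the pericentral group were also compared over the nuclei of single libraries. Spearman's rho on thinned counts was 0.30 to 0.62 for Cyp7a1 and Cyp27a1 over the 6 libraries (181 to 300 nuclei each), 0.23 to 0.47 for Cyp7a1 and Cyp7b1, and 0.17 to 0.42 for Cyp27a1 and Cyp7b1. Hsd3b7 gave 0.25 to 0.5 with Cyp27a1, 0.13 to 0.35 with Cyp7a1 and 0.07 to 0.25 with Cyp7b1. These 4 had been picked by their gradient in the same nuclei. Some pairs with a member of no called gradient reached like values, with 0.02 to 0.3 for Cyp7a1 and Akr1d1 and -0.03 to 0.29 for Cyp8b1 and Cyp27a1. Others stayed lower, such as -0.05 to 0.09 for Cyp7a1 and Slc27a5. For Cyp7a1 and Cyp8b1, which act in the same pathway, rho ran from -0.27 to 0.29. For Cyp7a1 and its repressor Nr0b2 it ran from -0.12 to 0.17. Nuclei of a library share its zonation and plate handling, and these values are descriptive.

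Levels of different genes were set side by side on the authors' length-scaled values. The annotation behind the gene lengths is not given, so the order holds for those lengths only. At G0 the order of library means was Cyp27a1 (66.9 and 61.7) and Akr1d1 (51.5 and 62.3), which overlapped, then Slc27a5 (31.2 and 39.2), Baat (22.2 and 24.7), Cyp7b1 (20.6 and 19.1), Nr0b2 (20.9 and 13.6), Hsd3b7 (10.5 and 10.1), Cyp7a1 (5.78 and 9.47) and Cyp8b1 (2.71 and 1.02). Cyp7b1 and Nr0b2 overlapped. At G14.5 Cyp7a1 had moved up to the fifth and the fourth place (27.2 and 28.2), overlapping with Slc27a5 (28.2 and 26.9), and Nr0b2 (6.86 and 7.98) was the lowest of the 9. At P7L Cyp27a1 (89.9 and 85.5) and Akr1d1 (79.9 and 69.1) again led, and Nr0b2 (4.7 and 9.72) was again last. The Cyp8b1 mean of 2.71 in G0 liver tissue fell to 1.65 without the nucleus of 93106 reads. The length behind these values of Hsd3b7 was 2.01 times its GENCODE exon length on a scale that sets Akr1d1 to 1, against 0.933 to 1.07 for the other members, so its place in the order depends on that length.

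Further genes of bile acid handling were read from lists chosen with results of these data known. Of 13 tested genes of the remaining synthesis steps, 3 were higher and 2 lower at G14.5 against G0, with a median of 0.32. Over all tested genes, 6.93% were called higher and 5.01% lower there, with a median of -0.01. At P7L against G0 these shares were 1.56% and 1.36%, with a median of 0.01. Amacr, the racemase of side chain shortening (0.82 ± 0.16, edgeR adjusted p = 0.0199), Scp2, a sterol carrier and thiolase (0.69 ± 0.13), and Cyp2c70, which makes muricholic acid in mice (0.60 ± 0.14), were higher. Cyp39a1, an oxysterol hydroxylase, was lower (-1.39 ± 0.29), as was Slc27a2 (-0.60 ± 0.12). Amacr was higher at P7L against G0 too (0.84 ± 0.16), and Cyp2c70 (-2.13 ± 0.15, edgeR adjusted p = 0.00305) and Acnat1, an acyl transferase related to Baat (-1.31 ± 0.12), were lower, 1 up and 2 down of 13 with a median of 0.06. Cyp2c70 measured 582 and 507 CPM at G0, 830 and 817 at G14.5, then 112 and 137 at P7L, so it moved opposite ways at the 2 later stages while Cyp8b1 was high at both.

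The median of 14 regulators tested was -0.31 at G14.5 against G0, beside -0.01 over all tested genes. Where 6.93% and 5.01% of all genes were called higher and lower, 0 of the 14 were higher and 4 lower. These were Fgfr4, the receptor of the intestinal signal that represses Cyp7a1 (-1.18 ± 0.22, edgeR adjusted p = 0.0171), Mafg, a repressor of Cyp8b1 (-0.91 ± 0.16), Nr1i2 (-0.70 ± 0.16) and Ppargc1a (-0.69 ± 0.15). The counts at P7L against G0 were 0 and 1, beside 1.56% and 1.36% of all tested genes. Hnf4a was the lower one (-0.73 ± 0.13, edgeR adjusted p = 0.0369). The median of the regulators was -0.09 there, beside 0.01 over all tested genes. Nr1h4, the bile acid receptor, measured 799 and 803 CPM at G0, 576 and 731 at G14.5, then 832 and 791 at P7L, and was not called. Nr5a2, an activator of Cyp7a1, was not called either (-0.24 ± 0.10 at G14.5 and -0.40 ± 0.10 at P7L).

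Of 11 transporters tested, 0 were higher and 5 lower at G14.5 against G0, beside 6.93% and 5.01% of all tested genes. Their median was -0.43, beside -0.01 over all. Slc10a1 (NTCP), which takes up conjugated bile acids, was -0.68 ± 0.11 at G14.5 (edgeR adjusted p = 0.0125) and 0.76 ± 0.12 at P7L (edgeR adjusted p = 0.026) against G0. Slco1a4 (-3.06 ± 0.14) and Slco1b2 (-1.87 ± 0.13), further uptake carriers, were lower at G14.5, as were the exporters Abcc3 (-5.18 ± 0.18) and Abcc2 (-0.74 ± 0.14). At P7L against G0, 1 was higher and 2 were lower, beside 1.56% and 1.36% of all tested genes. The median of the transporters was 0.05 there, beside 0.01 over all tested genes. Abcb11, the canalicular bile salt export pump, was among the lower ones (-0.66 ± 0.11, edgeR adjusted p = 0.0317). Abcb11 fell by 1.07 ± 0.11 between G14.5 and P7L while Slc10a1 rose by 1.43 ± 0.12.

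Between G14.5 and P7L, 2 of the synthesis list were higher and 3 lower, 3 regulators were higher and 1 lower, 4 transporters were higher and 1 lower, and 9 clock genes were higher and 4 lower. Their medians were 0.03, 0.32, 0.33 and 0.89, beside 0.00 over all tested genes, of which 4.2% were called higher and 5.06% lower. Between the zonation groups, 5 transporters were higher on the pericentral side and 0 lower. The synthesis list and the regulators had 0 higher and 1 lower each (Cyp39a1 and Ppargc1a), and no clock gene was called. Of all genes tested there, 3.64% were called and 1.93% were called higher.

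Cyp7a1 and Nr0b2 are known to follow the time of day in mouse liver, and the labels give no time of collection. Of 15 clock genes tested, 2 were higher and 5 lower at G14.5 against G0, beside 6.93% and 5.01% of all tested genes. Their median was -0.66, beside -0.01 over all. Arntl measured 27.9 and 40.9 CPM at G0, 136 and 131 at G14.5, then 29.3 and 20.9 at P7L (1.96 ± 0.27 at G14.5, edgeR adjusted p = 0.00599). Dbp measured 14 and 13.9 CPM at G0, 3.52 and 3.94 at G14.5, then 22.5 and 25.7 at P7L. The clock genes thus stood apart at G14.5. At P7L against G0, 1 of the 15 was called higher (Bhlhe41, 1.52 ± 0.17) and 0 lower, with a median of 0.07. The shares over all tested genes were 1.56% and 1.36% there. The part of the clock genes in the differences of the bile acid genes at G14.5 or P7L was not tested.

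For each member called between stages, the genes of most similar profile were sought among 5738 others of at least 20 CPM, by Pearson's r of log2 CPM over 18 sums (3 zonation groups of each of the 6 libraries, which share reads and depth). For Cyp7a1 these were Adh6-ps1 (0.906), Tle1 (0.901) and Car3 (0.891). For Cyp8b1 they were Fdps (0.921), Dmd (0.877) and Cyp51 (0.876). For Cyp7b1 they were Fam19a2 (0.893), Madd (0.873) and Fmo1 (0.871), and for Slc27a5 they were Tdo2 (0.957), Lincpint (0.929) and Cyth1 (0.904).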

How the data were processed

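The authors deposited raw read counts for each gene in each nucleus. The submitters' processing notes name Trimmomatic 0.39, HISAT2 2.1.0, featureCounts 1.5.3 and the build GRCm38; strand setting, annotation and nucleus filters are not given in the sources used here. The counts are reads, not molecules. They also deposited a length-scaled signal: from the values, each count was divided by a gene length and the nuclei were scaled to 100000 without 3 genes (Alb, Apoa2, Fabp1).

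Here counts were summed per library. Genes had to pass filterByExpr by stage and have reads in at least 5% of nuclei of at least 2 libraries. edgeR 4.0.16 (R 4.3.3) was fitted with TMM, stage and preparation, leaving 2 residual degrees of freedom, and tested over 15015 genes, two-sided. Zonation groups were tested as 12 sums with library as a block (5 residual degrees of freedom; 3 for the difference by stage). The index used 10 pericentral and 12 periportal genes with reads. No doublets were removed. Replicate 1 is liver tissue and replicate 2 perfusion.

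Alternatives used limma 3.58.1, DESeq2 1.42.0, other scalings and filters, thinned nuclei (35 nuclei lay below 250000 reads) and each library left out. The members and lists were chosen with earlier results of these data known. All 9 members are named; of other lists, called genes, at most 5 per comparison by smallest p; for likeness, the 3 highest r. Nr1h4, Nr5a2, Rhbg, Sp5 and the CPM of clock genes were added after their values were seen. Arntl, Dbp and Cyp2c70 were picked from the called genes in the same way.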

Additional observations from a re-analysis of the deposited data

Results flagged for a closer look

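In the preparations taken 1 at a time, a few small differences pointed opposite ways, and these differences were not tested because the fit leaves no degrees of freedom for stage by preparation. Hsd3b7 at G14.5 against G0 gave 0.33 for liver tissue and -0.06 for perfusion on the log2 scale. At P7L against G0 the liver tissue pair gave 0.20 and the perfusion pair -0.01, and at P7L against G14.5 they gave -0.12 and 0.05. Cyp7a1 at P7L against G14.5 was 0.03 in liver tissue and -0.52 in perfusion. None of these 4 comparisons was called over both preparations together.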

How the results depend on the processing

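Each of the 6 libraries was left out in turn, and scaling, filter, model and depth were changed 1 at a time. The alternative on the authors' values changed the table, the library summary and the model together. The count of called members at G14.5 against G0 was 3, within 1.5 times of that in 14 of 16 alternatives, and 1 on the authors' values with either pseudocount. At P7L against G0 it was 4 and became 1 (Cyp8b1) with filterByExpr alone, 0 on the authors' values with either pseudocount, and 1 to 5 when a library was left out. At P7L against G14.5 it was 1 and became 2 with library size alone and 0 to 1 when a library was left out. The counts between preparations, between zonation groups and for the zonation difference by stage did not move. Over all genes, DESeq2 called 3429, 1901 and 2631 in the 3 stage comparisons where edgeR called 1793, 438 and 1390, limma on the authors' values called 900 and 1056 at G14.5 against G0, 0 at P7L against G0, and 697 and 905 at P7L against G14.5. filterByExpr alone left 92 and no filter 227 at P7L against G0. With a library left out these counts were 651 to 1941, 37 to 669 and 421 to 2431.

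Sign changes occurred in uncalled differences, and the cause was not tested. At G14.5 against G0 the authors' values (pseudocounts 1 and 0.1) gave 0.00 and -0.01 for Hsd3b7, -0.03 and -0.03 for Akr1d1 and -0.02 and -0.02 for Baat, and library size alone gave -0.03 for Akr1d1. At P7L against G14.5 they gave 0.12 and 0.13 for Hsd3b7, library size alone gave 0.16 for Hsd3b7 and 0.01 for Cyp7b1, and thinned nuclei gave -0.06 for Cyp8b1. Between preparations Cyp7a1 was -0.09 with no term for stage and -0.05 with limma-voom, and Akr1d1 was -0.01 with library size alone. Between zonation groups Slc27a5 was 0.00 with an index of scaled genes. Leaving out a library moved Hsd3b7 from -0.01 to 0.29, Akr1d1 from -0.02 to 0.21 and Baat from -0.01 to 0.30 at G14.5 against G0, and Hsd3b7 from -0.05 to 0.24 at P7L against G0. At P7L against G14.5 it moved Cyp7a1 from -0.66 to 0.16, Hsd3b7 from -0.19 to 0.10, Cyp8b1 from -0.12 to 0.28 and Nr0b2 from -0.92 to 0.13. Between preparations it moved Cyp7a1 from -0.21 to 0.35, Akr1d1 from -0.07 to 0.14 and Nr0b2 from -0.03 to 0.65, and between zonation groups Cyp8b1 from -0.05 to 0.97, Akr1d1 from 0.00 to 0.14, Baat from -0.19 to 0.03 and Nr0b2 from -0.06 to 0.43. A stage left with 1 library was assumed to vary like the others. The labels give no replicate numbers, but preparation links 1 library of each stage and was a term of the fit. Without that term 3, 4 and 1 members and 2095, 578 and 1597 genes were called in the 3 stage comparisons. Detection shares were lower at lower depth: thinned to 100000 reads, Cyp8b1 at G14.5 was found in 64.3% and 56% of nuclei.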
